A study of Mus musculus with 6 samples.

Results

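The core of the TGF-β pathway was examined in primary mouse chondrocytes, the cells of cartilage, after knockdown of Pkm2, the M2 form of the glycolytic enzyme pyruvate kinase. The genes were chosen by name, with earlier results of these data known. They were the ligands Tgfb1, Tgfb2 and Tgfb3, the receptors Tgfbr1, Tgfbr2 and Tgfbr3, and the signal transducers Smad2, Smad3, Smad4 and Smad7. All 10 were found among the 55416 genes of the deposited table, and all 10 were among the 15269 genes tested. RNA-seq was performed on 3 libraries of cells transfected with a scrambled control siRNA (siNC) and 3 libraries of cells transfected with an siRNA against Pkm2 (siPkm2). The sample labels describe cells from the knee joints of neonatal mice, grown in DMEM/F12 with serum, whereas the supplementary methods give mice of 8 to 10 weeks, 50 nM siRNA and a check of the knockdown after 48 h. The genotype is given as WT for siNC and as PKM2 knockdown for siPkm2 replicate 1, and other PKM numbers are named for siPkm2 replicates 2 and 3, whose titles read siPKM2, so all 3 were taken as siPkm2. The labels do not say that the libraries came from separate cultures or animals, so p-values measure the spread between these libraries, which may be technical. In bulk RNA, fewer cells of a type and less RNA per cell cannot be told apart.

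TGF-β is secreted in a latent complex that is stored in the extracellular matrix and released by integrins and proteases. Active ligand binds the type II receptor TGFBR2, which recruits and phosphorylates the type I receptor TGFBR1, and TGFBR1 in turn phosphorylates SMAD2 and SMAD3, which enter the nucleus with SMAD4. TGFBR3, or betaglycan, is a co-receptor that presents ligand, and SMAD7 is an inhibitory SMAD that is induced by the pathway and blocks the type I receptor. In cartilage, TGF-β signalling maintains articular chondrocytes, restrains their hypertrophy and induces the lubricant proteoglycan encoded by Prg4.

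Total estimated counts ranged from 22316996 to 25691029 per library. Pkm, the targeted gene, had 1654, 2209 and 1293 TPM (a level corrected for transcript length and for the depth of the library) in siNC replicates 1, 2 and 3 and 245, 428 and 231 TPM in siPkm2 replicates 1, 2 and 3. The groups did not overlap for this gene, although the table does not separate its M1 and M2 transcripts. All 10 chondrocyte markers were detected, with a summed level of 4300 to 20038 TPM in siNC and 5731 to 15902 TPM in siPkm2, and the lowest sum in each group was that of replicate 2. Interferon-stimulated genes summed to 26.6, 1833 and 52.3 TPM in siNC replicates 1, 2 and 3 and to 1242, 3161 and 838 TPM in siPkm2 replicates 1, 2 and 3. Of 8 macrophage markers, Ptprc was at or below 0.03 TPM and Cd163 at 0 in every library, and Csf1r, Adgre1, Aif1 and C1qa were at or below 1.27 TPM. Cd68 had 6.31, 92.8 and 2.93 TPM in siNC replicates 1, 2 and 3 and 17.6, 53.4 and 6.33 TPM in siPkm2. Cd14 had 1.09, 18.9 and 1.40 TPM and then 5.77, 29.0 and 4.01 TPM, higher in siPkm2 in every pair. Summed levels in siNC and siPkm2 were 6.01 to 114 and 11.5 to 83.2 TPM for these 8 markers, 1.06 to 3.15 and 1.25 to 2.26 TPM for 6 endothelial markers, and 3.94 to 5.91 and 4.52 to 7.12 TPM for 5 muscle markers. For 5 osteoblast markers the sums were 320, 31.1 and 207 TPM in siNC replicates 1, 2 and 3. In siPkm2 replicates 1, 2 and 3 these were 125, 32.2 and 58.55 TPM, lower in pairs 1 and 3 and slightly higher in pair 2. The 6 synovial fibroblast markers summed to 167, 446 and 231 TPM in siNC replicates 1, 2 and 3 and to 303, 561 and 423 TPM in siPkm2 replicates 1, 2 and 3, higher in siPkm2 in every pair. Replicate 2 thus stood apart in both groups, and values without it are given where a call or a sign turned on it. The part of these markers in the results was not tested.

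With the groups compared as independent libraries, none of the 10 genes passed an adjusted p of 0.05 in edgeR's quasi-likelihood test, against 0 of 15269 genes (0%) overall. The edgeR test gave an unadjusted p under 0.05 for 2690 genes (17.6%) and for 1 of the 10, Tgfb3. DESeq2's Wald test without the block called 829 genes and none of the 10. Libraries with the same replicate number deviated together in both groups, so the replicate number was also used as a block. With this block, 3524 genes (23.1%) passed, 1874 higher in siPkm2 (12.3%) and 1650 lower (10.8%), and 3 of the 10 passed: Tgfbr3 was higher, and Tgfb3 and Tgfbr1 were lower. Upper-quartile factors with the block gave 1478 higher and 2061 lower of 3539 genes, with the same count of 3 among the 10. The share of the 10 genes was close to the background of all genes, and none of them passed at a fold over 2 with the block, where 890 genes (5.83%) did, 2.65% higher and 3.18% lower. The median log2 fold change with the block was -0.13 over the 10 genes and -0.01 over all genes tested. In TPM the groups did not overlap for 1 of the 10 genes, Tgfb3, against 22.8% of the genes tested. The groups overlapped in CPM (counts scaled to a common library size) for each of the 10 genes, whereas 3709 genes (24.3%) did not overlap, 12% higher and 12.3% lower. In CPM, 4 of the 10 genes differed in the same direction in all 3 pairs, 1 higher and 3 lower, against 61.1% of genes tested (30.5% higher and 30.6% lower).

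**Figure D1:**
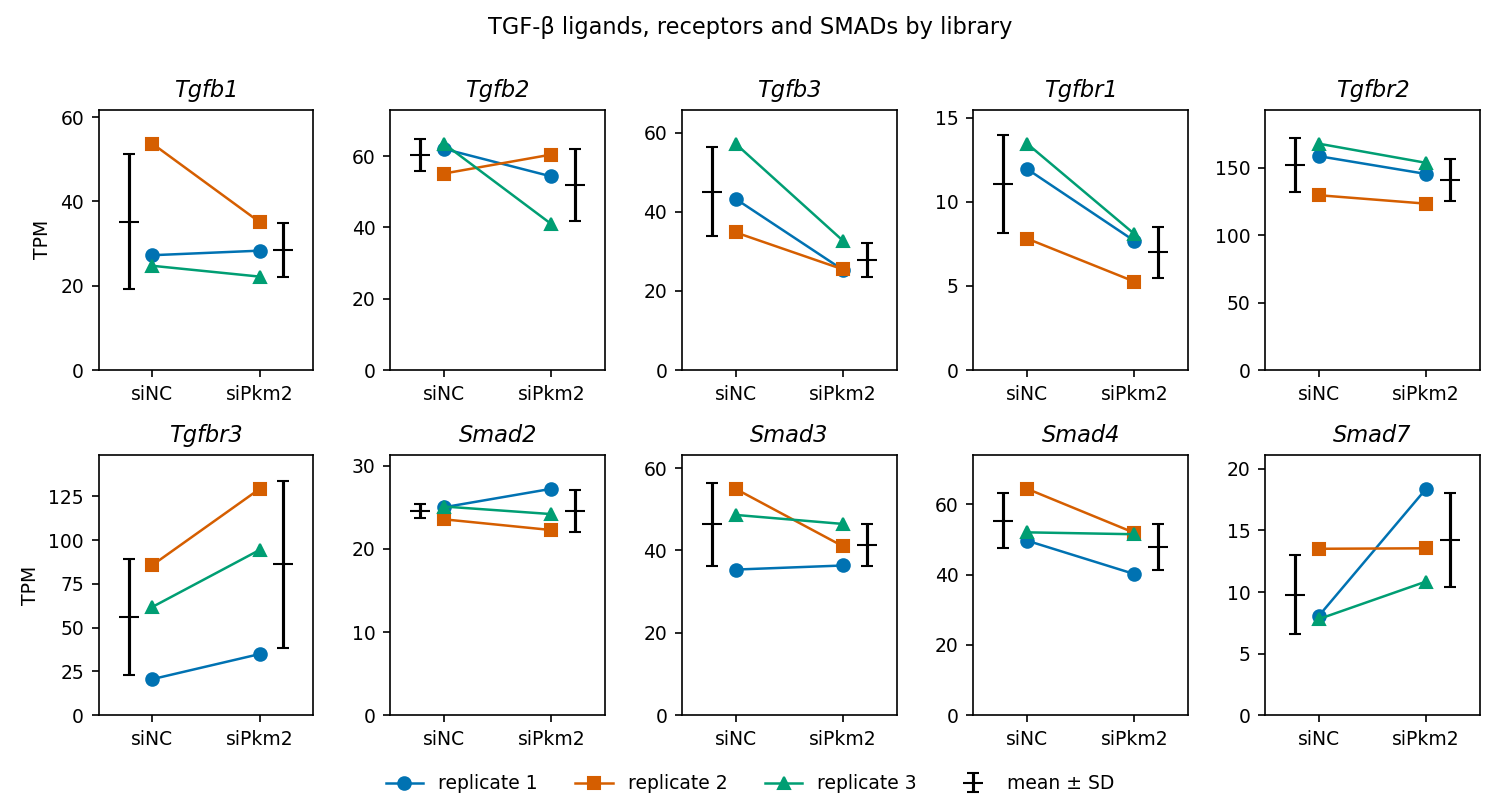
TPM of each gene in the 6 libraries, with lines joining libraries of the same replicate number and bars for mean ± SD (n = 3). Tgfb3 and Tgfbr1 were lower and Tgfbr3 higher in siPkm2 in each of the 3 pairs, and of these only Tgfb3 had groups that did not overlap in TPM, while in CPM all 3 overlapped.

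Among the ligands, Tgfb3 had 43.3, 34.8 and 57.2 TPM in siNC replicates 1, 2 and 3 and 25.3, 25.5 and 32.7 TPM in siPkm2 replicates 1, 2 and 3. It was lower in siPkm2 in every pair, replicate 3 was the highest library of each group, and the groups did not overlap in TPM but did in CPM. The mean was 45.1 ± 11.3 TPM in siNC and 27.8 ± 4.23 TPM in siPkm2 (SD, n = 3 each). With the block, Tgfb3 fell by 0.64 on the log2 scale (SE 0.11, edgeR adjusted p = 0.0186), a level 1.55-fold lower, whereas the fit without the block gave -0.66 (SE 0.23, edgeR adjusted p = 0.218). The pairs differed by -0.78, -0.38 and -0.73 in log2(CPM + 0.5), so pair 2 showed the smallest difference. Leaving out pair 2 gave an edgeR adjusted p of 0.000929 with the block, and leaving out pair 1 or pair 3 gave 0.109 and 0.135, in fits in which none of all genes tested passed.

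Tgfb1, the ligand most widely expressed across tissues, had 27.2, 53.7 and 24.7 TPM in siNC replicates 1, 2 and 3 and 28.3, 35.1 and 22.2 TPM in siPkm2 replicates 1, 2 and 3. Replicate 2 was the highest library in each group, and the groups overlapped. The log2 fold change with the block was -0.20 (SE 0.14, edgeR adjusted p = 0.323). It was -0.03 with the block and pair 2 left out. In the fit without the block it was -0.25 with all libraries and 0.14 without siNC replicate 2, so there the sign turned on that library.

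Tgfb2 had 62.0, 55.1 and 63.5 TPM in siNC and 54.3, 60.4 and 40.9 TPM in siPkm2, in the order of the replicates. It was lower in siPkm2 in pairs 1 and 3 and higher in pair 2, and the ranges overlapped. The log2 fold change with the block was -0.22 (SE 0.14, edgeR adjusted p = 0.2998), and with pair 2 left out it was -0.39 (SE 0.11, edgeR adjusted p = 0.0320). It was -0.24 without pair 1 (edgeR adjusted p = 0.495) and -0.036 without pair 3 (edgeR adjusted p = 0.909), so its size depended on which pair was left out. Of all genes tested, 39.1% passed in the fit without pair 2 and none in those without pair 1 or pair 3.

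The type I receptor gene Tgfbr1 had 12.0, 7.82 and 13.5 TPM in siNC replicates 1, 2 and 3 and 7.68, 5.26 and 8.09 TPM in siPkm2 replicates 1, 2 and 3. Every pair was lower in siPkm2, replicate 2 was the lowest library of each group, and siPkm2 replicate 3 lay above siNC replicate 2. With the block it fell by 0.53 on the log2 scale (SE 0.09, edgeR adjusted p = 0.0189), a level 1.44-fold lower, and the means were 11.1 ± 2.93 and 7.01 ± 1.53 TPM (SD, n = 3 each). Without the block the change was -0.54 (SE 0.29, edgeR adjusted p = 0.394). Pairs 1, 2 and 3 differed by -0.57, -0.42 and -0.56 in log2(CPM + 0.5), a narrower range than for Tgfb3. The edgeR adjusted p with the block was 0.00343 without pair 2, 0.116 without pair 1 and 0.147 without pair 3. As above, none of all genes tested passed without pair 1 or pair 3, and 39.1% passed without pair 2.

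The co-receptor gene Tgfbr3 had 20.6, 85.7 and 61.8 TPM in siNC replicates 1, 2 and 3 and 34.9, 129 and 94.4 TPM in siPkm2 replicates 1, 2 and 3. It was higher in siPkm2 in every pair, but the replicates of a group differed more than the members of a pair, and replicate 2 was highest and replicate 1 lowest in both groups. With the block it rose by 0.73 on the log2 scale (SE 0.08, edgeR adjusted p = 0.0120), a level 1.66-fold higher. The pair differences in log2(CPM + 0.5) were 0.80, 0.69 and 0.70. The edgeR adjusted p with the block was 0.00118 without pair 2, 0.0799 without pair 1 and 0.1005 without pair 3. Again no gene tested passed without pair 1 or pair 3, and 39.1% passed without pair 2. Without the block the change of Tgfbr3 had an SE of 0.59 and an edgeR adjusted p of 0.586, and the means were 56.03 ± 32.9 and 86.2 ± 47.7 TPM (SD, n = 3 each).

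The type II receptor gene Tgfbr2 had 158, 129 and 168 TPM in siNC and 145, 123 and 153 TPM in siPkm2, in the order of the replicates. Its TPM was lower in siPkm2 in every pair, whereas its CPM differed by -0.09, 0.05 and -0.01 on the log2 scale. The log2 fold change with the block was -0.02 (SE 0.09, edgeR adjusted p = 0.896), and its sign changed when some single libraries were left out.

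**Figure D2:**
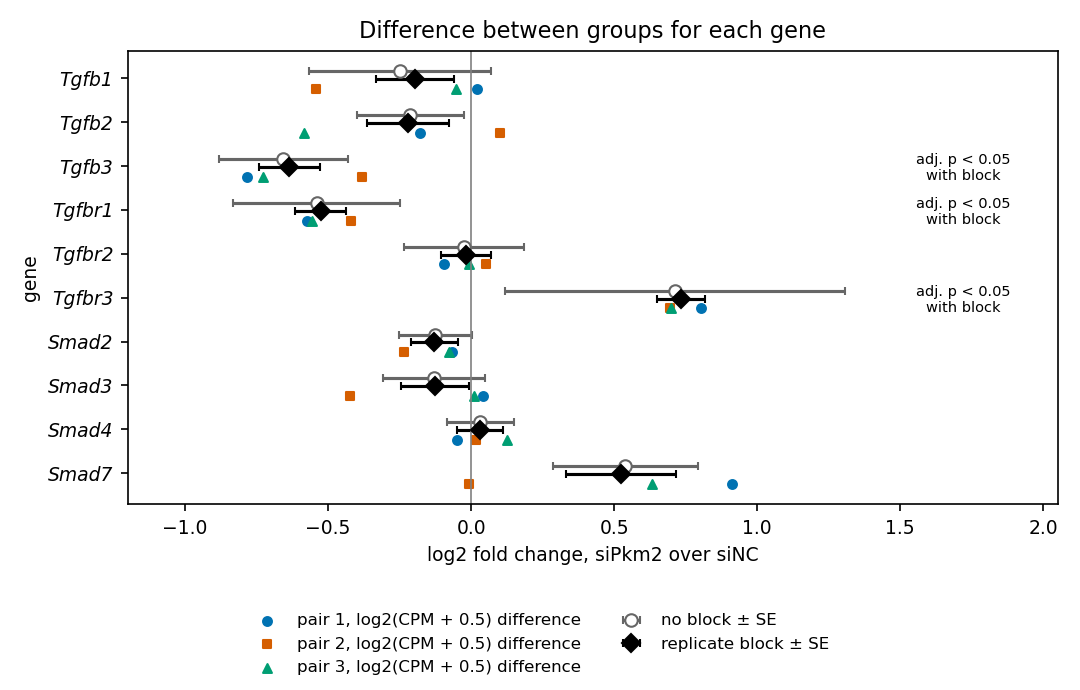
Log2 fold changes of the 10 genes, siPkm2 over siNC, from edgeR without the block (open circles) and with the replicate block (diamonds), with SE bars, and the difference of each pair in log2(CPM + 0.5). Tgfb3, Tgfbr1 and Tgfbr3 are marked as having an adjusted p under 0.05 with the block.

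The siRNA itself can match other transcripts through its seed, positions 2 to 8 of the antisense strand, which pairs with sites in 3′ untranslated regions as a microRNA seed does. The supplement lists 3 siRNAs against Pkm2 and states that the third was selected, but nothing ties an siRNA number to the sequenced libraries. The antisense strand of that siRNA is shown with its seed in capitals, and below it stands the site that its seed would pair with in Tgfbr1, also in capitals. The letters GAGAAAC were searched for on the transcript strand of the longest 3′ untranslated region that the annotation gives a gene.
siPkm2 number 3 antisense: uGUUUCUCcagacagcaugtt
Tgfbr1 site: atggttttGAGAAACctgtgaag

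Tgfbr1 lies on the plus strand of chromosome 4 at chr4:47353222-47414931, and the stretch shown is chr4:47414738-47414760 in exon 9, in the 3′ untranslated region (GENCODE M21 on GRCm38). The submitters' notes name mm9, and the deposited table gives no coordinates, so positions come from the annotation only. The letters were present once in Tgfbr1, at position 3969 of a region of 4154 bases, and once in Smad2, and in none of the other 8 genes. Of 13202 tested genes with such a region of at least 50 bases, 16.4% held the letters, and among regions 0.8 to 1.25 times as long as that of Tgfbr1 the share was 37.7%. Tgfb3, with 1035 bases, did not hold the letters, nor did Tgfbr3. The median log2 fold change with the block was -0.17 over the tested genes with the letters and 0.04 over those without. These medians did not allow for length, and the median region had 2549 bases in genes with the letters and 1236 bases over all. A match is a description of the sequence, and its part in the level of Tgfbr1 was not tested.

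Among the SMADs, no gene passed with or without the block. Smad7, the inhibitory SMAD, had 8.05, 13.5 and 7.80 TPM in siNC replicates 1, 2 and 3 and 18.4, 13.6 and 10.9 TPM in siPkm2 replicates 1, 2 and 3. The values of pair 2 were nearly equal, while those of pairs 1 and 3 were higher in siPkm2. The log2 fold change with the block was 0.52 (SE 0.19, edgeR adjusted p = 0.104). With pair 2 left out it was 0.78 (SE 0.12, edgeR adjusted p = 0.00338). It was 0.32 without pair 1 (edgeR adjusted p = 0.380) and 0.46 without pair 3 (edgeR adjusted p = 0.335), so the value depended on pair 1 as well as on pair 2. Of all genes tested, 39.1% passed in the fit without pair 2 and none in those without pair 1 or pair 3. Smad7 also had the lowest count of the 10 genes, 348 in siNC replicate 3, for which counting error alone amounts to 5.36%.

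Smad2 had 25.0, 23.6 and 25.1 TPM in siNC and 27.2, 22.3 and 24.2 TPM in siPkm2, in the order of the replicates, and Smad3 had 35.4, 54.96 and 48.6 TPM and then 36.3, 41.0 and 46.4 TPM. The receptor-regulated SMADs gave log2 fold changes of -0.13 each with the block (SE 0.08 for Smad2 and 0.12 for Smad3, edgeR adjusted p = 0.291 and 0.467). Without pair 2, the log2 fold change of Smad3 was 0.02.

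Smad4, the common partner of the activated SMADs, had 49.7, 64.4 and 52.0 TPM in siNC replicates 1, 2 and 3 and 40.2, 51.9 and 51.5 TPM in siPkm2 replicates 1, 2 and 3. It was lower in siPkm2 in every pair on the TPM scale, whereas the counts gave a log2 fold change of 0.03 with the block (SE 0.08, edgeR adjusted p = 0.799). The direction for Smad4 therefore depended on the unit.

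The level per transcript length ordered the genes. In siNC, Tgfbr2 stood alone at the top, since its range did not overlap that of Tgfb2, the next in order. Tgfb2, Tgfbr3, Smad4, Smad3, Tgfb3, Tgfb1 and Smad2 followed, and neighbours in this run overlapped in range. Tgfbr1 and Smad7 were lowest and overlapped each other, below the range of Smad2. In siPkm2, Tgfbr2 and Tgfbr3 overlapped at the top, and Tgfbr1 was last, below the range of Smad7.

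As a share of the summed TPM of the 3 receptors, Tgfbr3 made up 10.8%, 38.4% and 25.4% in siNC replicates 1, 2 and 3 and 18.6%, 50.2% and 36.9% in siPkm2 replicates 1, 2 and 3. It was higher in siPkm2 in every pair, and the groups overlapped (24.9 ± 13.8% against 35.2 ± 15.8%, SD, n = 3 each, exact permutation p = 0.5, two-sided). Tgfb3 made up 32.1 ± 7.58% of the ligand TPM in siNC and 26.2 ± 6.97% in siPkm2 (exact permutation p = 0.4), lower in every pair. Smad7 made up 7.10 ± 1.42% of the SMAD TPM in siNC and 11.2 ± 3.502% in siPkm2 (exact permutation p = 0.2), higher in every pair. With 3 libraries against 3 the smallest exact p is 0.1, so no share could pass 0.05. With single libraries left out, the difference in percentage points, siPkm2 minus siNC, ran from 2.85 to 18.6 for Tgfbr3 (lowest without siPkm2 replicate 2), from -9.83 to -2.23 for Tgfb3 (smallest without siNC replicate 3) and from 2.25 to 5.69 for Smad7 (lowest without siPkm2 replicate 1). Over the 10 shares compared, the exact p ranged from 0.2 to 0.9.

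**Figure D3:**
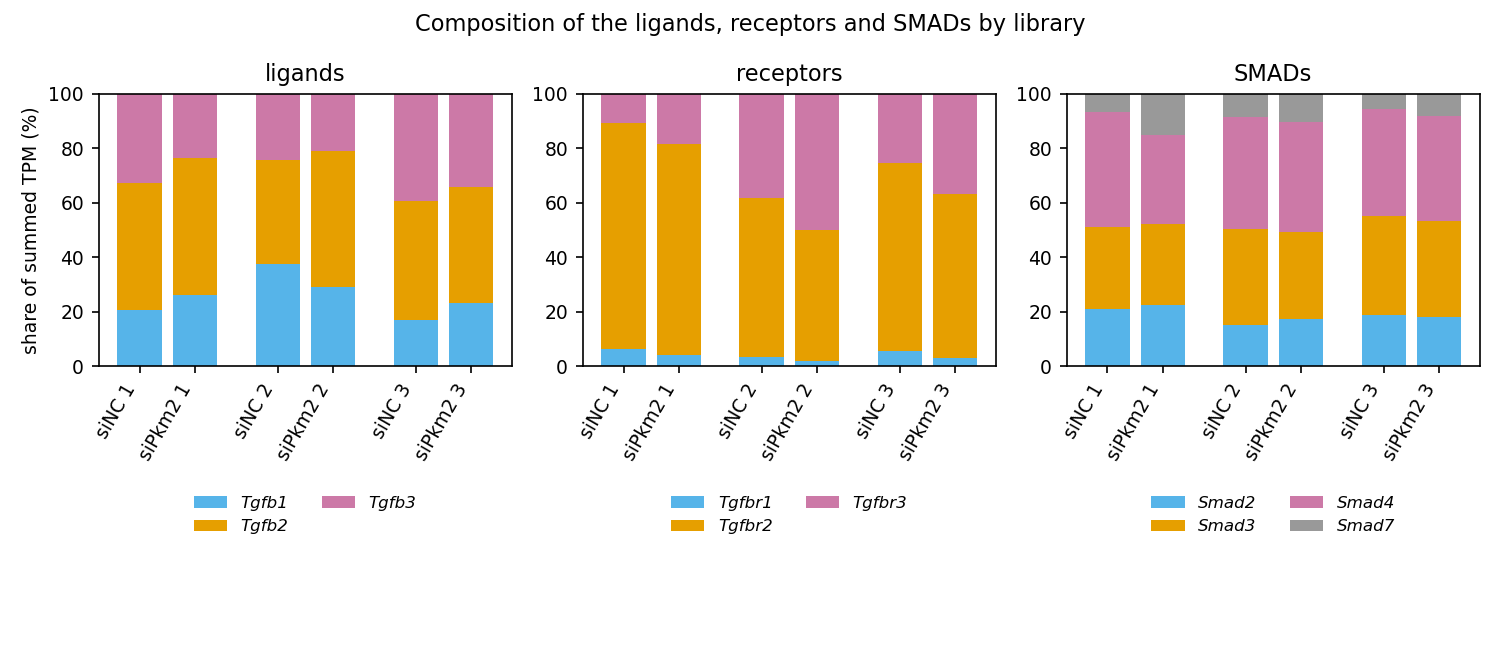
Shares of the summed TPM of the ligands, the receptors and the SMADs in each library, with libraries of the same replicate number side by side. The Tgfbr3 share of the receptors was higher in siPkm2 in every pair, from 10.8% to 18.6% in replicate 1, 38.4% to 50.2% in replicate 2 and 25.4% to 36.9% in replicate 3.

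The genes whose log2 CPM followed each leading gene of a role most closely over the 6 libraries were named by their Pearson r. These were Zfp354c and Lrrc56 for Tgfb3 (r = 0.997 each), A630089N07Rik (r = 0.997) and Klhl26 (r = 0.993) for Tgfbr3, and Selenoi (r = 0.992) and Itpr3 (r = 0.989) for Smad7. With 6 libraries many genes reached such values, 205 genes above 0.95 for Tgfb3, 67 for Tgfbr3 and 44 for Smad7. The libraries share the group difference and the replicate differences, and the values are a description only.

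Other genes of the pathway were counted in 4 lists. The lists were chosen with earlier results of these data known, so their shares are a description only. None of them passed without the block in edgeR, and the counts that follow were obtained with it. Of 23 TGF-β target genes, 7 passed (30.4%), 3 higher and 4 lower, with a median log2 fold change of 0.31. Of 20 genes of latent TGF-β storage and activation, 11 passed (55%), 6 higher and 5 lower, with a median of 0.29, and without Itgb6, which had under 10 counts in every siNC library, 10 of 19 passed with a median of 0.17. Of 24 tested SMAD partners and regulators, 5 passed (20.8%), 3 higher and 2 lower, with a median of 0.17. Of 11 tested genes of the activin branch, 2 passed (18.2%), and each was higher, while the median was -0.31. The medians stand beside -0.01 over all genes tested, and the shares beside 23.1%. In all, the lists held 76 genes. They mix genes of unlike roles, among them Dcn, Bgn and Fmod in latent storage and Fst, Fstl3 and Inha in the activin branch. The counts and medians therefore give no direction of signalling. Without pair 2 the counts were 15, 15, 11 and 5 in the same order, beside 39.1% of all genes tested in that fit, and no list gene that had passed with all pairs was lost. However, without pair 1 or pair 3 no gene of any list passed with the block. The same held for all genes tested in those fits, 0 of 15740 without pair 1 and 0 of 15545 without pair 3.

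Among the targets, genes usually induced by TGF-β did not move one way. Prg4, which encodes lubricin, had 8.10, 14.6 and 14.97 TPM in siNC replicates 1, 2 and 3 and 72.3, 22.8 and 76.4 TPM in siPkm2 replicates 1, 2 and 3. The groups did not overlap, and the rise was smallest in pair 2 (log2 fold change 2.15, SE 0.44, edgeR adjusted p = 0.0271 with the block). Prg4 is also a marker of synovial fibroblasts. With the block, 4 of the 6 markers of these cells passed, beside 23.1% of all genes tested. These were Prg4, Pdpn, Cd55 and Cd34, each higher in every pair. The other markers, Thy1 and Pdgfra, had negative log2 fold changes, -0.92 and -0.38, and did not pass (edgeR adjusted p = 0.108 and 0.190 with the block). Without pair 2, both passed with the block (edgeR adjusted p = 0.0186 for Thy1 and 0.0133 for Pdgfra), beside 39.1% of all genes tested. In pairs 1 and 3 both were lower in siPkm2. Thy1 was lower in every pair. The part of synovial fibroblasts in the level of Prg4 was not tested. Tagln, a smooth-muscle actin-binding protein, had 255, 114 and 225 TPM in siNC and 28.9, 54.3 and 44.9 TPM in siPkm2. The groups again did not overlap, with the smallest fall in pair 2 (log2 fold change -2.15, SE 0.41, edgeR adjusted p = 0.0243). Acta2, smooth-muscle actin, also fell, by 1.76 on the log2 scale (SE 0.43, edgeR adjusted p = 0.0399). Bhlhe40, a transcriptional repressor, did not pass (log2 fold change 1.13, SE 0.32, edgeR adjusted p = 0.0582) but passed without pair 2 (edgeR adjusted p = 0.000121). Cdkn1a and Klf10 also rose, and Cdkn2b and Tgfbi fell.

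In latent storage and activation, Thbs1, which encodes the activator thrombospondin-1, had 4903, 4184 and 5692 TPM in siNC replicates 1, 2 and 3 and 2560, 1728 and 2337 TPM in siPkm2 replicates 1, 2 and 3. The groups did not overlap, and Thbs1 fell by 1.12 on the log2 scale with the block (SE 0.15, edgeR adjusted p = 0.0134). Fbn2, a microfibril protein, fell by 2.36 (SE 0.33, edgeR adjusted p = 0.0142), from 46.8 to 91.1 TPM in siNC to 10.5 to 15.1 TPM in siPkm2. The integrin subunit gene Itgb6, whose product releases latent TGF-β, had 4, 4 and 3 counts in siNC and 126, 48 and 46 counts in siPkm2. It passed the filter on low counts only through siPkm2, where it is high, so its counts are given as a description and its own test result is not printed. The list counts include it among the genes that passed unless it is said to be left out. Itgb8, which encodes a subunit of another activating integrin, rose by 1.34 on the log2 scale (SE 0.17, edgeR adjusted p = 0.0133).

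Of the SMAD partners, Smad6, an inhibitory SMAD of the BMP branch, had 33.1, 22.9 and 38.5 TPM in siNC replicates 1, 2 and 3 and 18.4, 15.01 and 19.2 TPM in siPkm2 replicates 1, 2 and 3, without overlap. It fell by 0.78 on the log2 scale with the block (SE 0.11, edgeR adjusted p = 0.0142), whereas the other inhibitory SMAD, Smad7, had a log2 fold change of the opposite sign and did not pass. Usp15, a deubiquitinase of the type I receptor, fell by 0.50 (SE 0.09, edgeR adjusted p = 0.0206), and Wwp1, a ubiquitin ligase, rose by 0.84 (SE 0.11, edgeR adjusted p = 0.0133). Skil, a SMAD corepressor, had a log2 fold change of 0.71 (SE 0.19, edgeR adjusted p = 0.0530) and did not pass, whereas it passed without pair 2 (edgeR adjusted p = 0.00126).

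In the activin branch, Inhba, the subunit of activin A, had 6.85, 40.6 and 5.37 TPM in siNC replicates 1, 2 and 3 and 68.0, 80.4 and 32.4 TPM in siPkm2 replicates 1, 2 and 3. Inhba rose in every pair, by 2.79, 1.24 and 1.93 in log2(CPM + 0.5), although siNC replicate 2 lay above siPkm2 replicate 3. The log2 fold change of Inhba with the block was 2.0 (SE 0.30, edgeR adjusted p = 0.0162). Its receptor gene Acvr1b rose by 0.49 (SE 0.10, edgeR adjusted p = 0.0266). Gdf11 (log2 fold change -1.09, SE 0.29, edgeR adjusted p = 0.0505) and Acvr1c (-0.74, SE 0.53, edgeR adjusted p = 0.339) had the lowest values and did not pass, although Gdf11 passed without pair 2 (edgeR adjusted p = 0.000762).

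**Figure D4:**
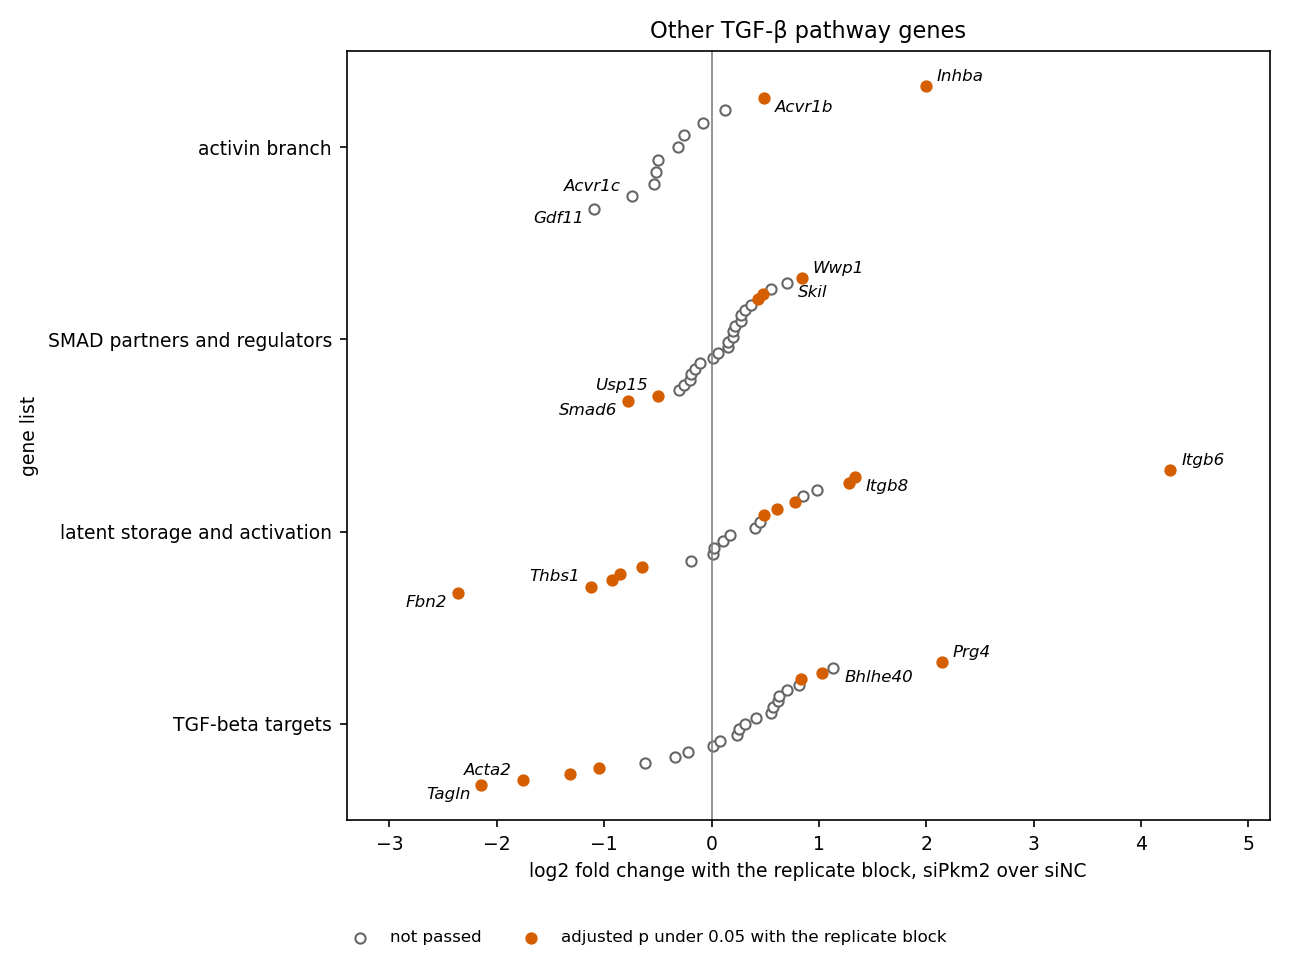
Log2 fold changes with the replicate block, siPkm2 over siNC, of the tested genes in 4 lists of pathway genes, with filled points for an adjusted p under 0.05 and the 2 highest and 2 lowest genes of each list named. Itgb6, drawn as a filled point, had under 10 counts in every siNC library and passed the filter only through siPkm2. The median was 0.31 for the targets, 0.29 for latent storage and activation, 0.17 for the SMAD partners and -0.31 for the activin branch.

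The letters GAGAAAC were present in the 3′ untranslated regions of 15 of 74 genes in these lists. They were present in 5 of the 11 genes that fell and in 0 of the 14 that were higher, Itgb6 among them, beside 503 of 1577 lower genes (31.9%) and 164 of 1806 higher genes among all tested. The length of the regions was not allowed for in these counts. The 5 genes were Tgfbi, Fbn2, Thbs1, Smad6 and Usp15, chosen after their values were seen, and the sites of 4 of them are shown with the letters in capitals.
Tgfbi site: taccgctgGAGAAACggcatcac
Thbs1 site: aagggctaGAGAAACcccccacc
Smad6 site: tgtatatgGAGAAACaagaaaga
Usp15 site: tggacggaGAGAAACaatttctg

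On GRCm38 these stretches are chr13:56639160-56639182 on the plus strand (Tgfbi, exon 17), chr2:118125079-118125101 on the plus strand (Thbs1, exon 22), chr9:63953293-63953315 on the minus strand (Smad6, exon 4) and chr10:123105701-123105723 on the minus strand (Usp15, exon 22). Usp15 held the letters at another place in the same exon as well. Each stretch lies in the 3′ untranslated region of the transcript with the longest such region in GENCODE M21, and the part of these letters in the levels was not tested.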

How the data were processed

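RNA-seq of 3 siNC and 3 siPkm2 libraries was analysed from the deposited files. The authors deposited estimated counts per gene, not normalized, of which 11.3% to 13.8% of the values per library were fractional. The authors also deposited TPM values, scaled within each library, and the TPM files of single libraries held the same values as the table. The aligner, counting tool and annotation are not given in the sources used here. The submitters' processing notes name mm9 and edgeR, and the table is named for DESeq2. Columns with the authors' own comparison (fold change, p-value, adjusted p-value and call) and the group means were not used, and 0 columns of single libraries were left unused.

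After rounding of the estimated counts, edgeR 4.0.16 was run in R 4.3.3, and DESeq2 1.42.0 and limma 3.58.1 served the alternatives. The filter filterByExpr of edgeR left 15269 genes, which were scaled by TMM factors. Quasi-likelihood tests in edgeR were adjusted by Benjamini and Hochberg's method over these genes, with a threshold of 0.05. The groups were first compared without the replicate number and then with it as a block. Replicate numbers 1, 2 and 3 occur in each group, and libraries of the same number had deviations from the group means that correlated at 0.646 to 0.756 across genes, against 0.158 or lower for different numbers, so the numbers were taken to pair the libraries. Shares of TPM were compared by a two-sided exact permutation test. Pair differences used log2(CPM + 0.5). No library pair of a group was a duplicate, since 53.6% to 73.7% of genes differed by more than sampling noise. The scripts were tested on simulated data.

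All 10 genes were named. In each list the 2 genes with the highest and the 2 with the lowest log2 fold change with the block were named, and for the gene of each role with the largest change the 2 most alike in log2 CPM. The genes and lists were chosen with earlier results of these data known. Gene positions and 3′ untranslated regions were read from GENCODE M21 on GRCm38, in which 52083 of 55416 identifiers were found, and siRNA sequences from the supplementary text. Alternatives were other scaling factors, other filters, DESeq2, limma on log2(TPM + 1), a fold over 2, and single libraries or pairs left out. List counts were also taken without genes under 10 counts in every library of a group, a choice made after seeing the data.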

Additional observations from a re-analysis of the deposited data

How the results depend on the processing

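The counts of genes passing in edgeR without the block were 0 for all genes tested, for the 10 genes and for the 4 lists, and with the replicate block, which uses the pairing, they were 3524, 3 and, for targets, latent storage, SMAD partners and activin branch, 7, 11, 5 and 2. With a fold over 2 and the block they were 890, 0, 6, 5, 0 and 1. DESeq2 without the block gave 829, 0, 3, 5, 1 and 0. All genes passing numbered 3 with upper-quartile factors, 9 with no filter and 3 with at least 10 counts in every library. Single libraries left out without the block gave 0 to 105 genes, 0 to 2 targets and 0 to 1 latent storage genes, the highest values without siNC replicate 2. The block without pair 2 gave 5941 genes (39.1% of those tested), 5 of the 10, and 15, 15, 11 and 5 in the lists. The following settings were added after seeing the data. The block without pair 1 or without pair 3 gave 0 throughout. The block gave 10 of 19 latent storage genes without the gene under 10 counts in every siNC library. The block with RLE factors gave 3556, 3, 7, 11, 5 and 3, with upper-quartile factors 3539, 3, 7, 11, 5 and 4, with limma on log2(TPM + 1) 1775, 3, 3, 8, 2 and 2, and with DESeq2 3889, 3, 12, 14, 6 and 3. Tgfb3, Tgfbr1 and Tgfbr3 were the 3 that passed in each of these fits with all 3 pairs.

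Signs changed for genes that did not pass. With single libraries left out, the log2 fold change without the block ran from -0.46 to 0.14 for Tgfb1 (positive without siNC replicate 2), from -0.16 to 0.090 for Tgfbr2 (positive without siNC replicate 1, siNC replicate 3 or siPkm2 replicate 2) and from -0.028 to 0.082 for Smad4 (negative without siNC replicate 2 or siPkm2 replicate 3). With the block, Tgfbr2 was 0.021 without pair 1, Smad3 0.015 without pair 2 and Smad4 -0.015 without pair 3. Smad4 was -0.034 with upper-quartile factors, -0.036 with these and the block, and -0.21 with limma on log2(TPM + 1) and the block. In percentage points, siPkm2 minus siNC, the Tgfb1 share ran from -2.85 to 7.35 and the Smad2 share from -0.723 to 2.34 with single libraries left out, the Smad2 share was -1.24 on CPM and the Smad4 share was 1.06 on CPM. The causes were not tested. At the lowest count of the 10 genes, 348 for Smad7, counting error was 5.36%.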

Other observations

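The ratio of estimated count to TPM, relative to the other genes of a library, gives the transcript length at which the authors' quantification placed a gene. For Smad4 this implied length was 2481, 2003 and 2585 bases in siNC replicates 1, 2 and 3 and 2997, 2399 and 2708 bases in siPkm2 replicates 1, 2 and 3, longer in siPkm2 in every pair, with overlapping groups. For Smad2 it was 3953, 4433 and 3987 bases in siNC and 3507, 3785 and 3722 bases in siPkm2, shorter in every pair and without overlap. For the receptors it was longer in siPkm2 without overlap, for example 5981 to 6085 bases against 6380 to 6413 bases for Tgfbr1. Over 10300 genes, 13.5% were longer and 15.1% shorter in every pair, and 5.04% were longer and 5.61% shorter without overlap. Single transcripts were not analysed here.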
